A study of Mus musculus with 3 samples.

Results

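The 9 genes described here encode A20 (Tnfaip3), its partner proteins (Tnip1, Tnip2, Tnip3, Tax1bp1, Itch and Rnf11) and the deubiquitinases Cyld and Otulin. They were chosen by name, matching each symbol to the gene annotation, and every symbol matched 1 gene of the 55536 annotated genes in the tables. RNA came from the cytosolic fraction of macrophages that were grown from C57BL/6J mouse bone marrow. All cells had received 100 ng/ml Lipid A for 12 h, then 12 h of washout, then 100 ng/ml Lipid A again for 25 min. Lipid A is the membrane anchor of bacterial lipopolysaccharide and activates the receptor TLR4. The 3 libraries of total RNA depleted of ribosomal RNA form 1 group of 3 biological replicates; sex and age are not given in the labels, and the replicates carry the same donor entry, so an SD here covers the variation from library to library, which can be technical. No unstimulated, singly stimulated or nuclear libraries were analysed here, so no value below is a response to Lipid A and no test between conditions was made.

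TLR4 and the TNF receptor signal to NF-kB through chains of ubiquitin that are built on adaptor proteins and kinases and serve as docking platforms. A20 ends this signalling by removing, binding or replacing such chains, and its loss in mice causes severe inflammation. The ABIN proteins, encoded by Tnip1, Tnip2 and Tnip3, bind both A20 and ubiquitin chains, Tax1bp1 brings A20 to its substrates together with the ubiquitin ligases Itch and Rnf11, Cyld removes lysine-linked and linear chains, and Otulin cleaves linear chains.

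Stretches of 80 bases at exon ends of Tnip3 and of Tnfaip3 are shown because the results below turn on transcripts that read from these exons into the next intron. Each is from mm10, written 5′ to 3′ on the gene's strand, and capitals mark intronic bases. In the spliced Tnip3 message the fifth exon of transcript Tnip3-201 is joined to the sixth (chr6:65599912-65605890, + strand, intron removed). The transcript Tnip3-205 reads from the same exon into intron 5 (chr6:65599912-65599991), and Tnip3-206 reads from the first exon of Tnip3-201 into intron 1 (chr6:65590623-65590702). Tnfaip3-205 keeps intron 5, of 1131 bases (chr10:19006813-19006892, - strand), and intron 7, of 699 bases (chr10:19004407-19004486, - strand).
Tnip3 spliced: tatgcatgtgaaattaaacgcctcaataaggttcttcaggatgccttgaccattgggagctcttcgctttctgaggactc
Tnip3-205: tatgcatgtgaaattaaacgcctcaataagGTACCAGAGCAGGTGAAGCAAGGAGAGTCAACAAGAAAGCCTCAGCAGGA
Tnip3-206: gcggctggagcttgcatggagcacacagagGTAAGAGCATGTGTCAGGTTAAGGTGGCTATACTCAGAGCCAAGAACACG
Tnfaip3-205 intron 5: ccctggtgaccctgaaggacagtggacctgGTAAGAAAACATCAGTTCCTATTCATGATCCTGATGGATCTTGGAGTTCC
Tnfaip3-205 intron 7: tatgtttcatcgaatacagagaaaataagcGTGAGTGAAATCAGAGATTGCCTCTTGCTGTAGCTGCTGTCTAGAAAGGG

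The last 60 bases of Tnip3-205 (chr6:65600115-65600174, + strand) are shown because it had the highest mean TPM of transcripts with intronic bases among the 9 genes. Capitals mark a match to the polyadenylation signal AATAAA, the hexamer that lies shortly before the cut site of most messages. Use of this match as a signal was not measured.
Tnip3-205 end: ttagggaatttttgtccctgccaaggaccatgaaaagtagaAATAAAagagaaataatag

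The following promoter stretches are shown because Tnfaip3, Tnip1 and Tnip3 are known to be induced by NF-kB and the RefSeq table holds 2 starts of Tnfaip3, whose transcripts had different levels. Each is the 130 bases before a RefSeq transcript start on GRCm38.p6, the assembly of mm10, and capitals mark matches to the kappaB consensus on either strand. The outer Tnfaip3 start (chr10:19015411-19015540, - strand) had 2 matches and the inner start (chr10:19011964-19012093, - strand) had 0. The Tnip1 stretch (chr11:54962941-54963070, - strand) had 3 overlapping matches, and the stretch before the inner Tnip3 start (chr6:65590268-65590397, + strand) had 1. The far upstream start of Tnip3, which led its full-length coding transcripts in TPM, is not in the RefSeq table. It was not searched for matches.
Tnfaip3 outer: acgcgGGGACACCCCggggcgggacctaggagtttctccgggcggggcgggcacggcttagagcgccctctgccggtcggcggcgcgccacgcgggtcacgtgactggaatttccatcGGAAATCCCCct
Tnfaip3 inner: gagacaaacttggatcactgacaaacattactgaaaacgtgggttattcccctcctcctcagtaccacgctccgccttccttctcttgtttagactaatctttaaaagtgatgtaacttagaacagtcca
Tnip1: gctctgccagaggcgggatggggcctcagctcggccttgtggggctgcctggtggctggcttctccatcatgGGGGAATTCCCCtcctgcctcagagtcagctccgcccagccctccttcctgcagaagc
Tnip3 inner: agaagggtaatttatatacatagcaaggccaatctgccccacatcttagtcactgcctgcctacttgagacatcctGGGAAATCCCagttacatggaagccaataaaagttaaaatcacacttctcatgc

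In the full RefSeq windows, 250 bases before to 50 bases after a start, 5 of the 7 genes in the promoter table had at least 1 match in any of their promoters, against 5.14% of 27025 genes in the table. The table holds 9 promoters of these genes, and of all its 32851 promoters 4.51% had a match. The other matches were in Cyld, 155 bases before its start, and in Tax1bp1, after a start. Tnip2 and Otulin had 0 matches in this window, and Itch and Rnf11 were not matched in the table. For Tnip3 the match is that of the inner start alone. A match is a run of letters and was not measured as a binding site.

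Total expected counts were 21311556 to 55517261 per library, with replicate 2 the shallowest. All 8 macrophage markers were at 33.1 TPM or more in each library, while 0 of 20 markers of other blood and stromal cells reached 1 TPM in all libraries and their summed level was 0.86 to 1.18 TPM. The libraries differed in nuclear RNA: Malat1, Neat1 and Xist, which stay in the nucleus, had 8329, 924 and 803 counts for each 1000000 counts on protein-coding genes, mitochondrial ones left out (protein-coding CPM), in replicate 1, 3480, 212 and 42.3 in replicate 2, and 1444, 152 and 23.1 in replicate 3. Their part in the values below was not tested. In bulk RNA, fewer cells with a transcript and less of it per cell cannot be told apart.

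All 9 genes were above 1 TPM in every library, against 42.2% of 22028 protein-coding genes. TPM is a level per transcript length, so genes can be set side by side. The median level of the 9 genes was 18.0 ± 2.75 TPM (SD, n = 3), against 9.92 ± 1.46 TPM over the 9287 protein-coding genes at that limit. Above the rest stood the A20 gene, the adaptor genes Tnip1 and Tnip3, and Tax1bp1, at 37.5 to 56.6 TPM. Itch, Rnf11, Cyld and Otulin were at 13.3 to 18.0 TPM and Tnip2 was lowest.

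Tnfaip3 (chr10:19000910-19015657, - strand) had 41.25, 39.17 and 44.33 TPM in replicates 1, 2 and 3, from 11959, 3543 and 10638 counts. The mean was 41.6 ± 2.60 TPM, among the top 14.5% of the 9287 genes, and the libraries were close to each other on this scale. Tnip1 (chr11:54910785-54962917, - strand), whose product ABIN1 is a ubiquitin-binding restraint on A20-controlled signalling and cell death, had 35.10, 34.76 and 42.67 TPM, with replicate 3 highest. Tnip3 (chr6:65525313-65634040, + strand), which encodes ABIN3, had 60.22, 63.69 and 45.98 TPM and a mean of 56.6 ± 9.38 TPM. Replicate 3 was the low library for Tnip3, and on this count of all transcripts it was the highest of the 9 genes by mean. Tnip2 (chr5:34496087-34513991, - strand), which encodes ABIN2, the ABIN that also stabilises the kinase Tpl2 upstream of ERK, had 6.01, 6.58 and 5.59 TPM. Its mean of 6.06 ± 0.497 TPM rested on 284 to 835 counts and placed it in the top 65.5% of the 9287 genes.

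Tax1bp1 (chr6:52713729-52766780, + strand), an A20 adaptor that also acts as an autophagy receptor, had 45.55, 58.16 and 55.41 TPM (53.0 ± 6.63). Itch (chr2:155133509-155226855, + strand), a NEDD4 family ligase, had 13.0, 19.9 and 13.1 TPM (15.3 ± 3.96), and Rnf11 (chr4:109451098-109484728, - strand), a small RING protein, had 16.14, 21.15 and 16.67 TPM (18.0 ± 2.75). Replicate 2 was the highest library for these 3 genes in TPM as deposited, the scale on which protein-coding genes held 40.4% of replicate 2, against 29.6% of replicate 1 and 34.8% of replicate 3. In protein-coding CPM the direction turned for Tax1bp1, lowest in replicate 2 with 260, 243 and 272, and Rnf11 was highest in replicate 1 with 71.8, 68.8 and 66.4. Itch remained highest in replicate 2, with 117, 135 and 102 protein-coding CPM.

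Cyld (chr8:88697028-88751945, + strand) had 11.4, 16.1 and 12.4 TPM (13.3 ± 2.48), and Otulin (chr15:27542635-27630693, - strand) had 12.81, 18.25 and 13.79 TPM (14.95 ± 2.90). Both deubiquitinase genes were highest in replicate 2, by less in protein-coding CPM, where Cyld had 103, 107 and 94.0 and Otulin 29.98, 31.47 and 28.01. Otulin overlaps Ank on the opposite strand, which had 664, 216 and 383 counts, and the use of strand in counting is not given in the sources used here, so reads from the overlap cannot be assigned with certainty. Small pseudogenes inside Tnip1, Tax1bp1, Cyld and Itch had at most 28 counts in a library.

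The order of the 9 genes by mean TPM was Tnip3, Tax1bp1, Tnfaip3, Tnip1, Rnf11, Itch, Otulin, Cyld and Tnip2. Neighbours were called apart where the difference of log2(TPM + 1) had the same sign in 3 of 3 libraries and a mean above its SD, and 6 of 8 neighbouring pairs were. Tnip3 and Tax1bp1 differed by 0.09 ± 0.33 (log2, n = 3), with Tnip3 higher in 2 of 3 libraries, and Itch and Otulin by 0.02 ± 0.09, so neither pair differed beyond its spread. The widest steps were from Tnip1 to Rnf11 (1.02 ± 0.31) and from Cyld to Tnip2 (1.01 ± 0.18). An exact sign-flip test over 3 libraries cannot give a p under 0.25 and was not used.

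The lead of Tnip3 rested on transcripts that retain introns. Counting protein-coding transcripts alone, Tnip3 had 26.8, 38.63 and 29.98 TPM (31.8 ± 6.12), below Tax1bp1 at 44.31, 57.8 and 55.21 TPM in each library. Tnfaip3 had 28.97, 35.1 and 42.78 TPM (35.6 ± 6.92) and Tnip1 31.72, 34.28 and 41.94 TPM (36.0 ± 5.32) on this scale. The order then read Tax1bp1, Tnip1, Tnfaip3, Tnip3, Rnf11, Itch, Otulin, Cyld and Tnip2, with 5 of 8 neighbouring pairs apart. Tnip1, Tnfaip3 and Tnip3 did not differ beyond their spread from neighbour to neighbour, nor did Itch and Otulin. This scale was chosen after the data were seen.

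**Figure D1:**
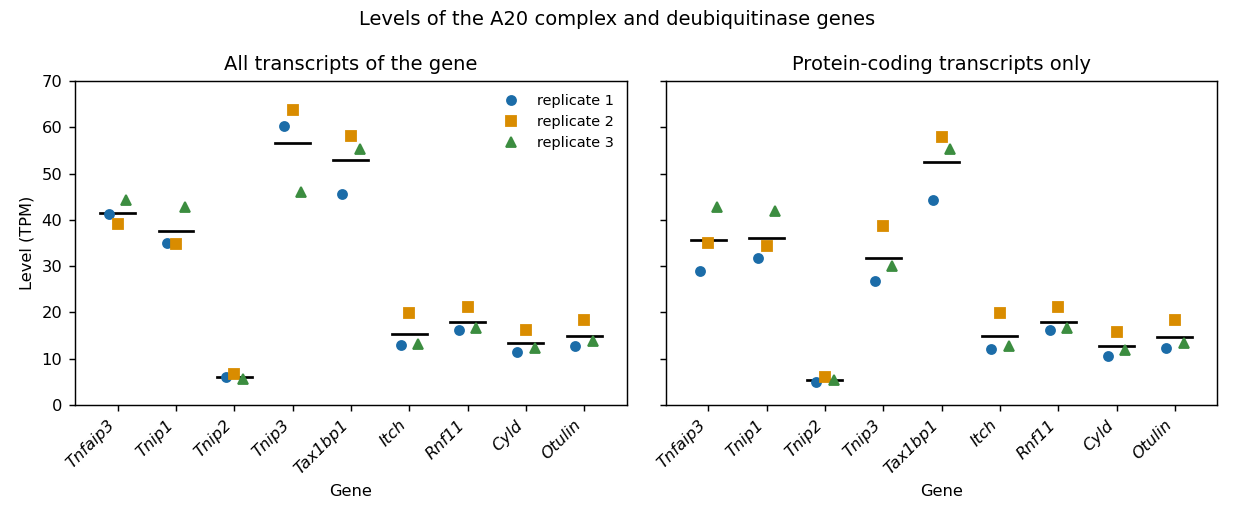
Level in TPM of each gene in each library (points, by replicate) with the mean of 3 libraries (line), for all transcripts (left) and protein-coding transcripts only (right). Tnip3 has the highest mean on the left, 56.6 TPM, and lies at 31.8 TPM on the right, while Tax1bp1 is at 53.0 and 52.4 TPM.

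Of the 9 genes, 7 have an annotated retained-intron transcript, and Otulin and Rnf11 have none. Retained-intron transcripts held 55.5%, 39.3% and 34.8% of the TPM of Tnip3 (43.2 ± 10.9, n = 3) and 29.8%, 10.4% and 3.50% of that of Tnfaip3 (14.6 ± 13.6). For both genes replicate 1 was the high library, and without it the mean share of Tnfaip3 was 6.94%, under the limit of 10% used next. Tnip3 and Tnfaip3 were the 2 of 7 genes at a mean share of 10% or more, against 18.4% of 4317 protein-coding genes that have such a transcript and a mean of at least 5 TPM. Tnip2 was just below, with 17.6%, 9.12% and 2.33% (9.70 ± 7.67). The count depends on the table, since in the read-based transcript table Tnip2 was past the limit too, at 17.4% ± 16.7, beside Tnfaip3 at 17.0% ± 14.5 and Tnip3 at 44.1% ± 10.4. Itch, Cyld, Tnip1 and Tax1bp1 had mean shares of 1.21% to 3.32%. The median over the 7 genes was 3.32%, or 1.71% without replicate 1, against 2.35% over the 4317 genes, and 2.71% of those genes were at or above the share of Tnip3 and 13.7% at or above that of Tnfaip3.

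**Figure D2:**
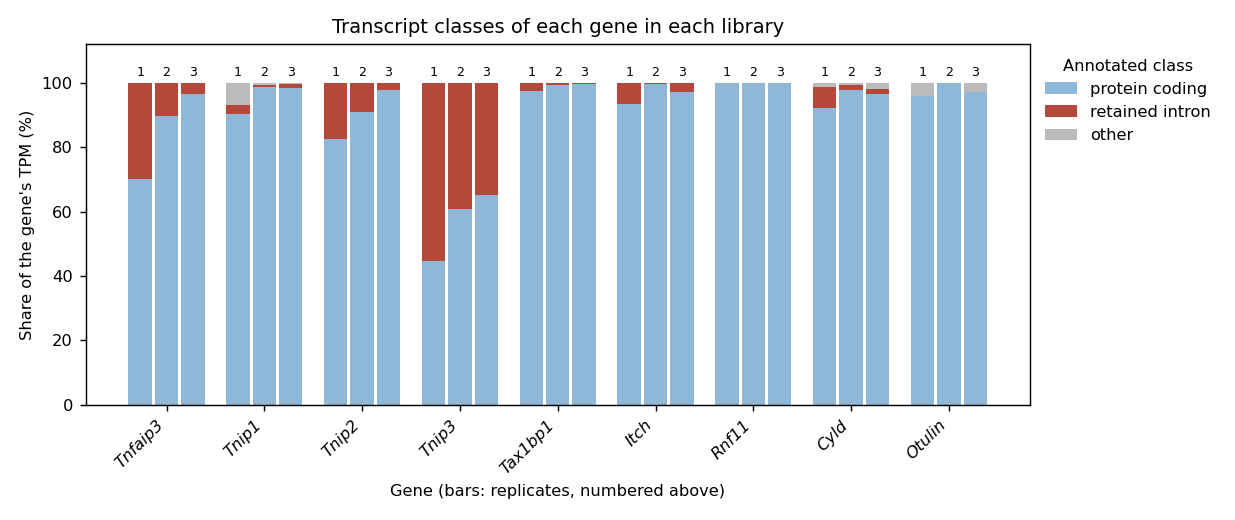
Share of each gene's TPM (%) on protein-coding, retained-intron and other transcripts in each library (stacked bars, numbered by replicate). The retained-intron share is largest for Tnip3, at 55.5%, 39.3% and 34.8%, and in replicate 1 for each of the 7 genes that have such a transcript.

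On the scale of counts, retained-intron transcripts of Tnip3 had 105, 35.2 and 23.6 protein-coding CPM in replicates 1, 2 and 3, and those of Tnfaip3 63.7, 14.1 and 9.52. All 7 genes were highest in replicate 1, against 79.3% of 4213 genes with counts on such transcripts, so the share of genes with this pattern was high throughout. The excess of replicate 1 over the mean of the other two (offset 0.1) was 3.58-fold for Tnip3 and 5.35-fold for Tnfaip3, and its median was 4.65-fold over the 7 genes, against 2.46-fold over the 4213. The nuclear RNAs Malat1, Neat1 and Xist were also highest in replicate 1, and their part in this excess was not tested.

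The 4 retained-intron transcripts of Tnip3 did not behave alike. Tnip3-206, a single exon of 4627 bases that spans intron 1, had 57.6, 12.4 and 7.0 protein-coding CPM, and Tnip3-204, a single exon of 2624 bases that ends in intron 5, had 26.7, 4.96 and 2.53. Replicate 1 was 5.89-fold above the mean of the others for Tnip3-206 and 6.96-fold for Tnip3-204. Tnip3-203 was at 1.47, 0.0812 and 0.346, from 70.6, 1.59 and 14.0 expected counts. Tnip3-205 had 19.7, 17.7 and 13.7 protein-coding CPM, and here replicate 1 was 1.25-fold above the mean of the others. Tnip3-205 was singled out after its values were seen.

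Tnip3-205 has 5 exons and 842 bases, and its last exon (chr6:65599813-65600174) runs 233 bases into intron 5. It held 16.81, 21.18 and 13.41 TPM (17.1 ± 3.90), or 30.1% ± 2.80 of the TPM of Tnip3, and 33.0% ± 1.21 in the read-based transcript table. Its level was of the size of Tnip3-207, the leading coding transcript in TPM, at 17.82, 26.87 and 21.33 TPM, and above the coding Tnip3-201 at 8.98, 11.76 and 8.65 TPM. TPM is per length, and Tnip3-201 has 3769 bases. Tnip3-205 rested on 942, 346 and 557 of the gene's 10066, 2748 and 4818 counts. That was fewer than the 2881, 1116 and 2003 counts of Tnip3-201. It is the one of the 4 with AATAAA in its last 40 bases, starting 19 bases before the annotated end as shown above. Over all annotated transcripts, whatever their level here, that hexamer is in the last 40 bases of 16.4% of 21422 retained-intron and 39.3% of 58745 protein-coding ones. It is more frequent among the retained-intron transcripts with counts here, as given next. Among 2442 retained-intron transcripts at 1 protein-coding CPM or more, the median excess of replicate 1 was 1.79-fold for the 789 with AATAAA there and 2.79-fold for the 1653 without, and 29.0% had an excess at or under that of Tnip3-205. The exons of Tnip3-205 before the intron are shared with coding transcripts and reads on them are divided by a model, so its level rests on the 233 bases of its own, which Tnip3-204 also covers.

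**Figure D3:**
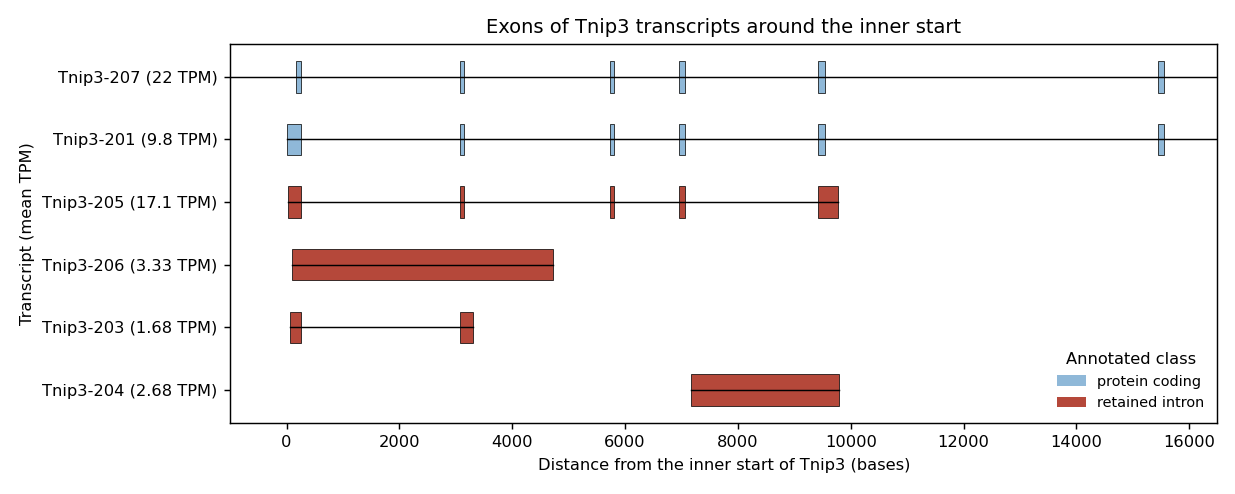
Exons (boxes) of 6 Tnip3 transcripts by distance in bases from the inner start, coloured by annotated class, with the mean TPM of 3 libraries beside each name; exons farther upstream and downstream are outside the window. Tnip3-205 shares its first splice sites with the coding transcripts and ends inside intron 5, and Tnip3-206 and Tnip3-204 are single unspliced exons.

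Both retained-intron transcripts of Tnfaip3 were high in replicate 1. Tnfaip3-205, of 6199 bases with introns 5 and 7 kept, had 56.2, 12.2 and 8.97 protein-coding CPM, and Tnfaip3-206, of 764 bases, had 7.46, 1.87 and 0.554. Their excess in replicate 1 was 5.26-fold and 5.75-fold, and neither has AATAAA in its last 40 bases.

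**Figure D4:**
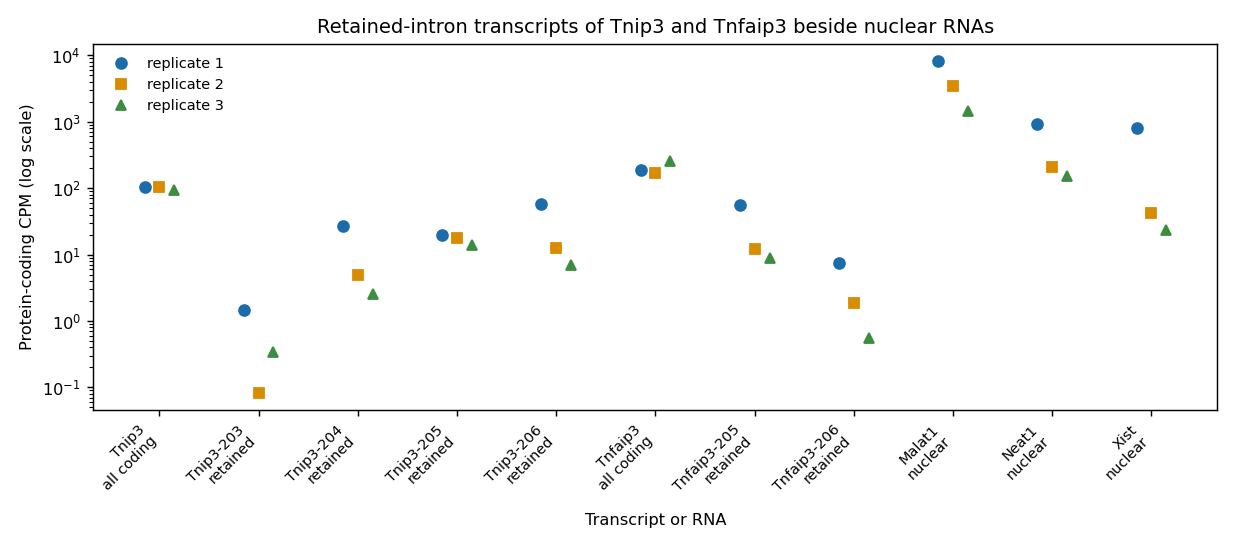
Protein-coding CPM (log scale) in each library for the summed coding transcripts and each retained-intron transcript of Tnip3 and Tnfaip3, and for 3 nuclear RNAs. Replicate 1 is the highest library for each retained-intron transcript and each nuclear RNA shown, and its excess over the mean of the others is 1.25-fold for Tnip3-205, against 5.26-fold for Tnfaip3-205 and 6.96-fold for Tnip3-204.

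Several genes had transcripts that differ in start or end. Tnfaip3-201, from the outer start, had 14.29, 22.01 and 27.96 TPM, and Tnfaip3-202, from the inner start, 9.02, 6.87 and 9.32 TPM. Both encode the same length of 2325 coding bases, and the outer start held 61.3%, 76.2% and 75.0% of the pair (70.8 ± 8.28). In the read-based table it held 51.4%, 71.8% and 75.4% (66.2 ± 12.9), so the size of its lead in replicate 1 depends on the table. The short transcript Tnfaip3-204, of 456 bases with 260 coding bases, held 14.0% of the gene's TPM. This rested on 120, 37.4 and 91.1 of the gene's 11959, 3543 and 10638 counts. Its mean of 5.79 TPM is part of the level of Tnfaip3 on coding transcripts, and so of its place in that order. For Tnip3, the start far upstream (chr6:65525385 for Tnip3-207) held 66.5%, 69.6% and 71.1% of the TPM of full-length coding transcripts (69.1 ± 2.37). The rest was on Tnip3-201, from the inner start at chr6:65590398. The 2 also differ in the last exon, of 715 bases in Tnip3-207 and 2964 in Tnip3-201, so this share is not one of start use alone. By counts the order turned, with 2129, 944 and 1857 for Tnip3-207 against 2881, 1116 and 2003 for Tnip3-201. Tnip3-205, at a mean of 17.1 TPM, begins near the inner start and is not in this share. Tnip3-207 has 837 coding bases and Tnip3-201 has 624.

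Rnf11 and Cyld differed in the length of the last exon. For Rnf11, the form with a last exon of 3325 bases held 29.9%, 30.8% and 34.9% (31.9 ± 2.66) and the form of 1524 bases the rest, and both have 462 coding bases. For Cyld, transcripts with the last exon of 5117 bases held 22.3%, 19.4% and 17.2% (19.6 ± 2.58) of coding TPM. The short end was thus the larger share for both genes in every library. In the read-based table the long end held 26.3% ± 1.66 for Rnf11 and 12.8% ± 1.58 for Cyld. The leading Cyld transcript, Cyld-206, ends in the short exon of 1627 bases and held 56.9% ± 8.26, while Cyld-210 held 19.1% in replicate 2 and 2.63% and 4.04% in replicates 1 and 3. Of the other genes, Tax1bp1-201, Otulin-201, Tnip2-202 and Itch-201 held 98.1%, 97.6%, 90.3% and 83.4%, and Tnip1 was split between Tnip1-205 at 56.7% and Tnip1-202 at 27.04%.

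Between libraries, the 9 genes moved by amounts near those of other genes. The highest library was 1.20-fold above the lowest in the median over the 9 genes (protein-coding CPM), against 1.26-fold over the 9287 genes. Tnip3 had 210, 140 and 119 protein-coding CPM, a 1.77-fold range that 6.50% of the 9287 genes reached, with replicate 1 high. On its coding transcripts it had 105, 105 and 95.2, a 1.11-fold range, so that range lay in the retained-intron transcripts. Tnfaip3 had 249, 181 and 262 protein-coding CPM (1.45-fold) and 186, 167 and 253 on coding transcripts, low in replicate 2 on both scales. Rnf11 had the smallest range of the 9 genes (1.08-fold).

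The biological coefficient of variation that edgeR estimated for each gene, the spread between libraries beyond counting error, was 0.119 for Rnf11 to 0.187 for Tnip3. The median over the 9 genes was 0.146, against 0.175 over 12361 genes. With 3 libraries these values are drawn strongly towards a common one.

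Of 6103 protein-coding genes at 5 TPM or more in all libraries, those with the pattern across the 3 libraries most like Tnfaip3, by Euclidean distance of centred log2 protein-coding CPM, were Ufc1 (0.00249), Cactin (0.00556) and Stambpl1 (0.00935). With 3 libraries such likeness is weak, and 123 of 6103 genes lay within 0.1 of Tnfaip3. Among its partners Tnip1 was nearest, at 0.106 (place 141). Tnip3, at 0.687 (place 5599), and Itch, at 0.686 (place 5590), were farthest and nearly level.

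Around these genes, 52 of 60 genes of the same pathway were at 1 TPM in every library, against 42.2% of protein-coding genes, with a median of 9.63 ± 0.879 TPM. The linear ubiquitin ligase, which builds the chains that Otulin and Cyld remove, has its subunits encoded by Sharpin, Rnf31 and Rbck1, and their RNA levels were 33.6 ± 0.462 TPM for Sharpin, 20.9 ± 5.10 TPM for Rnf31 and 20.9 ± 3.77 TPM for Rbck1. Spata2, which links Cyld to that ligase, had 7.53 ± 1.22 TPM, and its relative Spata2l was the 1 of 5 genes of this list under 1 TPM, with a list median of 20.1 ± 3.86 TPM. All 16 substrates and neighbours of A20 were at the limit, with a median of 10.5 ± 0.158 TPM. The ubiquitin-conjugating enzyme genes Ube2d3 (165 ± 41.0), Ube2l3 (103 ± 20.5) and Ube2v1 (61.9 ± 12.6 TPM) led them.

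Other deubiquitinases were led by Usp18, which removes the ubiquitin-like protein ISG15, at 75.07, 130.43 and 156.94 TPM, with replicate 1 low. Usp25 had 62.4 ± 12.9 and Usp15 48.3 ± 7.34 TPM, and 10 of 11 genes of that list were at the limit, with a median of 12.9 ± 5.39 TPM. Of 13 other OTU family genes, the family of A20 and Otulin, 11 were, with a median of 5.31 ± 1.11 TPM; Otub1 had 23.6 ± 4.14, Otulinl 23.2 ± 1.36 and Otud5 20.0 ± 3.68 TPM. Otud7a was listed at 0.

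Of 10 NEDD4 family ligases and their adaptors 7 were at the limit (median 8.44 ± 0.585 TPM), led by Wwp1 (49.6 ± 13.9), the adaptor Ndfip1 (41.1 ± 7.40) and Wwp2 (18.4 ± 2.85 TPM), while Hecw1 and Hecw2 were listed at 0. Of 6 ubiquitin-binding relatives 5 were (median 9.91 ± 1.01 TPM), led by the autophagy receptor gene Sqstm1 at 277 ± 20.9 TPM, then Nbr1 (23.6 ± 5.02) and Optn (10.3 ± 2.17 TPM), and Calcoco2 was listed at 0. Sqstm1 had the highest level of the 60 genes, above each of the 9 genes of the A20 complex and its deubiquitinases.

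**Figure D5:**
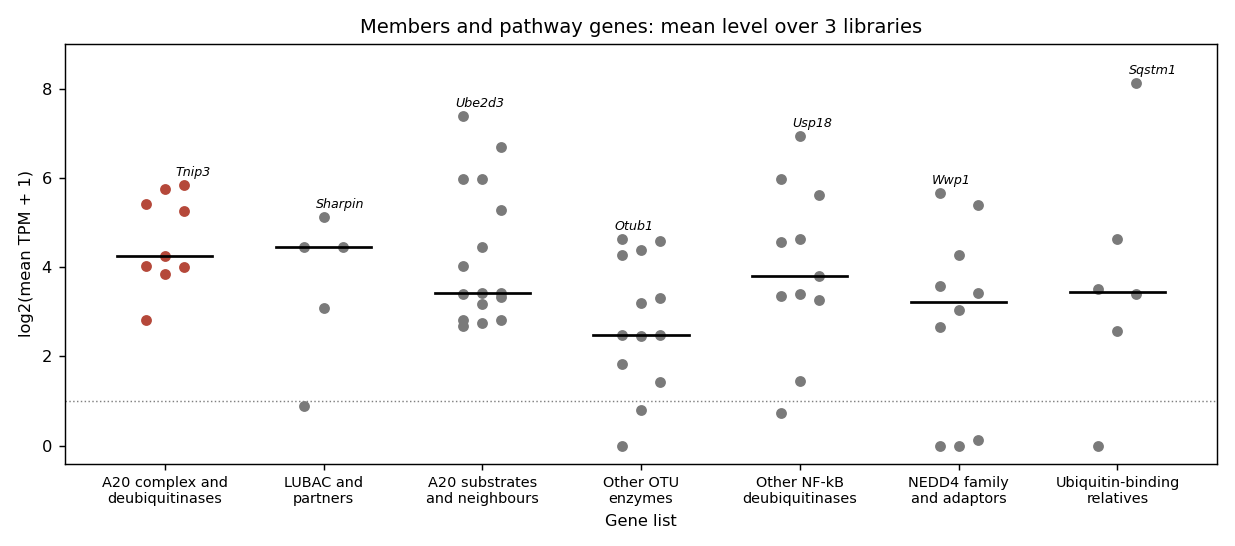
Mean level over 3 libraries, as log2(TPM + 1), of the A20 complex and deubiquitinase genes (red) and of 6 pathway lists (grey), with the median of each list's gene means (line), the highest gene of each list named, and 1 TPM as a dotted line. All 9 red points lie above the dotted line, and Sqstm1, at 277 TPM, is the highest point.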

How the data were processed

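Total RNA-seq of 3 libraries of 1 group was analysed. Per the file headers, the authors' gene table and transcript table of a library hold expected counts, TPM, FPKM and bounds of TPM, and a second transcript table, read-based, holds estimated counts and TPM. Per the deposited description files, the build is mm10 with GENCODE release M21, and the first tables come from an alignment to the transcriptome. The program that made each table, its version and any use of strand: not given in the sources used here. The bounds of TPM deposited by the authors, treated as a score, and effective length were only looked at.

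The 9 genes and the pathway lists were chosen with earlier results of these data known. TPM was used as deposited for levels, and rounding was applied to expected counts for edgeR 4.0.16 (R 4.3.3; TMM, filterByExpr, intercept only); DESeq2 1.42.0 was an alternative. Protein-coding CPM divides expected counts by the sum over 22015 nuclear protein-coding genes. Summaries used Python 3.11.15. Transcripts were sorted by their annotated biotype, and named where they held 10% or more of a gene's TPM in either table; each pathway list names its 3 highest genes by mean TPM. Others named were chosen after their values were seen.

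Total expected counts were 55517261, 21311556 and 45635014 in replicates 1, 2 and 3, of which 0.194%, 0.247% and 0.0227% lay on identifiers outside the annotation and were left out. Of 27 gene counts of the 9 genes, 26 were whole within 0.005. Nuclear protein-coding genes held 29.6%, 40.4% and 34.8% of TPM, so TPM also moves with the RNA classes of a library. On simulated counts with a coefficient of variation of 0.2 for 12161 genes and 0.6 for 200 genes of the 12361 in the fit, the median estimates for this spread between the 3 libraries were 0.209 and 0.244, and 0.161 and 0.484 without sharing between genes. Promoters were taken from RefSeq, other sequences from GENCODE M21. Alternatives covered the unit, the scale, the table, limits on low values and leaving out each replicate.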

Additional observations from a re-analysis of the deposited data

How the results depend on the processing

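With each replicate left out, all 9 genes and 52 of 60 pathway genes were at 1 TPM or more in every remaining library. These counts could not fall, since a gene at that limit in all libraries remains so when 1 is left out. Other settings could change them. With a limit of 5 TPM, all 9 genes and 43 of 60 pathway genes were at the limit. By read-based TPM, all 9 genes and 48 of 60 pathway genes were at 1 TPM or more. The median level of the 9 genes, 18.0 TPM, was 8.81 TPM in the read-based table and 51.6 TPM rescaled to nuclear protein-coding genes. It was 52.6 TPM read-based and rescaled (an alternative chosen after seeing the data). A back-transformed mean of log2(TPM + 1), which is another statistic than a median, gave 22.8 TPM. The rescaled values are larger by construction, since fewer genes share the same total. Nuclear protein-coding genes held 20.5%, 21.4% and 7.95% of read-based TPM in replicates 1, 2 and 3, and the cause of the lower read-based median was not tested. The median retained-intron share of 7 genes, 3.32%, was 9.02% in the read-based table, and the cause was not tested. The retained-intron share of Tnip3, 43.2% of TPM, was 31.7% of counts, which unlike TPM are not divided by length. The 1.77-fold range of Tnip3 was 1.11-fold on coding transcripts (chosen after seeing the data), which leave out the retained-intron counts by construction. The median coefficient of variation, 0.146, was 0.0846 without sharing between genes (chosen after seeing the data). The level of each of the 9 genes moved by more than its SD as FPKM, rescaled, read-based, and read-based with rescaling, all of which are other scales. Tnfaip3, Tnip2 and Tnip3 also moved on coding transcripts, which made 39 moved values of single genes against 33 that did not. Among these 33 are the 9 values for each replicate left out. Those could not move, since leaving out 1 of 3 libraries shifts a mean by less than its SD. The remaining 48 alternative values for other than single-gene levels moved by less than the spread between replicates or stayed within 1.5 times. For the median level and the retained-intron shares of Tnip3 and Tnfaip3, the values with a replicate left out could not leave that spread either. The counts of genes at 1 TPM could not fall with a replicate left out, as stated above. The order of means changed on coding transcripts. Tnip3 was below Tax1bp1 there, at 31.8 against 52.4 TPM. All transcripts gave 56.6 against 53.0 TPM, a difference within its spread. Tnfaip3 was below Tnip1 by mean on coding transcripts, at 35.6 against 36.0 TPM, but in 1 of 3 libraries only and within the spread. All transcripts gave 41.6 against 37.5 TPM for that pair.

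With each replicate left out in turn, the median level was 16.4 to 18.9 TPM, the number of neighbouring pairs apart 5 to 7 of 8, the median retained-intron share 1.71% to 4.76%, that of Tnip3 37.1% to 47.4% and of Tnfaip3 6.94% to 20.1%, and the median coefficient of variation 0.142 to 0.155. The lowest shares were those without replicate 1. No paired analysis was possible because there is 1 group. Replicate 2 has the fewest counts, so Tnip2, with 284 counts there, has the largest counting error of the 9 genes.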
